A study of Mus musculus with 16 samples.

Results

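Osr1, Igfbp3, Hivep2 and Rgs1 are 4 of 21755 protein-coding mouse genes, and each has within 1 Mb of its start site a 10 kb bin in which 4 chromatin loops end. They were chosen by that loop count and by the place of the bin at the gene or facing it. Both are therefore descriptions and carry no test. The loops come from Micro-C of whole cochlea of C57Bl/6 mice, aged postnatal day 0 (P0) by the sample labels and P0/1 by the series text, an assay that cuts chromatin between nucleosomes and joins DNA ends that lie close in the nucleus. The 4 Micro-C libraries, 1 of them a technical replicate, form a single group without treatment, and the loops were called once on their merged reads. By the paper's counts, the technical replicate supplied most of the read pairs. The list holds 6798 loops in 11828 anchor bins, each with a false discovery rate (FDR) below 0.1 that the loop caller assigned. No spread between replicates, animals or cell types can therefore be given for any value, and the cells of the whole organ that carry a loop cannot be told apart.

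A chromatin loop is seen where 2 distant stretches of a chromosome meet more often than their surroundings. Many loops form when the cohesin ring reels in DNA until it is held at CTCF, a zinc finger protein that stops cohesin mainly when its sites point toward each other, while other loops join promoters and enhancers. Where cohesin stays anchored at one end while it reels in DNA from the other, a single stretch can meet several partners that all lie on the same side.

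Osr1 encodes a zinc finger transcription factor of the odd-skipped family that acts in mesoderm and kidney development. Igfbp3 encodes a secreted protein that binds insulin-like growth factors (IGFs) and sets how much of them reaches their receptor. Hivep2 encodes a large zinc finger protein that binds kappa B-like enhancer motifs. Rgs1 encodes a GTPase-activating protein that shortens signalling of G-protein-coupled receptors, best known in lymphocytes. The bin of 4 loops is called the hub below, and the far end of each of its loops is called a partner.

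Every hub sent all 4 loops to the same side, to the right (toward higher coordinates) at Osr1, Igfbp3 and Hivep2 and to the left at Rgs1. At Igfbp3 the hub was the bin of the start site itself. At the other 3 genes the start site lay in the nearest partner bin, so 1 of the 4 hub loops ended on the gene. A start site in an anchor bin was found for 7.10% of protein-coding genes. A bin of 4 loops within 1 Mb of the start site was found for 0.680%. The 4 genes were chosen by such a bin and by its place at the gene or facing it. Both shares are thus background and not a comparison.

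**Figure D1:**
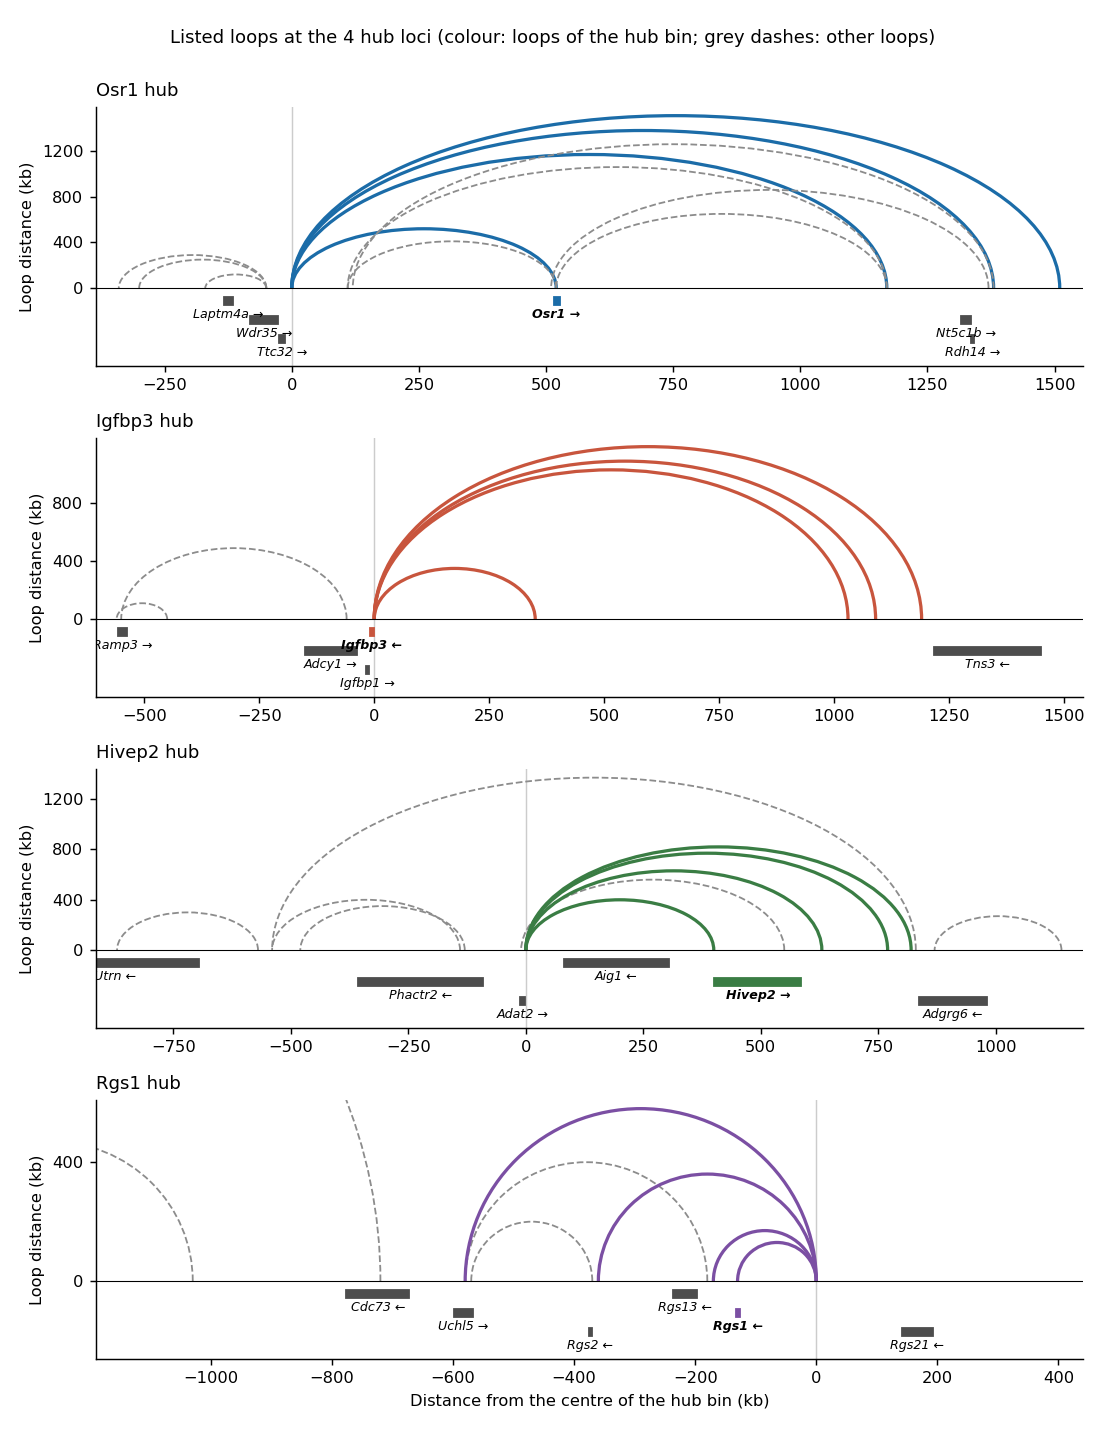
Arcs join the anchors of each listed loop at the 4 loci; the x axis is the distance from the hub bin in kb, the height of an arc is the loop distance in kb, coloured arcs are the 4 loops of the hub and grey dashed arcs are the other loops with an anchor within 1 Mb of the start site. Bars are selected protein-coding genes with arrows for their strand, the gene of the locus in colour. All coloured arcs of a panel open to one side, and the grey arcs of 1700 kb and 470 kb at Rgs1 leave the panel on the left.

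Sequence is shown first where it differs between the loci. In mm10, matches to the CTCF consensus with at most 1 mismatch were found in the hub and all 4 partners at Igfbp3, in the hub and 2 of the 4 partners at Osr1, in 1 partner but not the hub at Hivep2, and in neither hub nor partner at Rgs1. The best match of each bin, or the leftmost of equally good ones, is given 5′ to 3′ on its own strand. Capitals are the 14 bases set against the consensus, a mismatched base included, with 8 flanking bases on each side. The Igfbp3 hub, its partner at 1090 kb and the Osr1 partner at 1380 kb had no mismatch, and the others had 1.
Igfbp3 hub, chr11:7210514-7210543, plus strand: gcctgctaCCAGCAGGGGGCAGtcacgccc
Igfbp3 partner at 350 kb, chr11:7568670-7568699, minus strand: gacacatgCCACTAGGTGCCAGtgttgttc
Igfbp3 partner at 1030 kb, chr11:8245824-8245853, minus strand: ttctatcaCCACTAGATGGTGCtgtctgag
Igfbp3 partner at 1090 kb, chr11:8302994-8303023, minus strand: cgacaggtCCAGCAGATGGCAGtgttgaaa
Igfbp3 partner at 1190 kb, chr11:8405729-8405758, minus strand: aagagagtCCGGCAGGTGGCGCtcgcgctc
Osr1 hub, chr12:9052643-9052672, plus strand: cctgacatCAAGTAGGGGGCACgtgtaaaa
Osr1 start-site bin, chr12:9570059-9570088, plus strand: cttcctcgCCAGCAGGGGGAGCgttttctt
Osr1 partner at 1380 kb, chr12:10438176-10438205, minus strand: agctgcgtCCACCAGAGGGCGCccatgtcc
Hivep2 partner at 770 kb, chr10:14332876-14332905, minus strand: ctccaggtACAGCAGGGGGCACcagcatct

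The Igfbp3 locus held the most uniform arrangement. The hub carried 1 match on the plus strand without a mismatch, in an intron of Igfbp3 and 3388 bp inside the gene from its start site, and each of the 4 partners carried 1 match on the minus strand. The hub match thus pointed toward all 4 partner matches and they toward it, which is the convergent orientation. Only the partner at 1090 kb matched without a mismatch, so that with none allowed 1 of the 4 loops was convergent. At Osr1 the hub match on the plus strand faced the minus-strand match of the partner at 1380 kb. The start-site bin of Osr1 held 2 matches on the plus strand, in the same direction as the hub, each with 1 mismatch, and the one printed lay 36 bp from the Osr1 start site, upstream of it, within an intron of the lncRNA gene 1700022H16Rik, which runs on the opposite strand. The Hivep2 match lay in the lincRNA gene Gm48854 outside its exons, and the remaining matches overlapped no gene.

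Of the 16 hub loops 5 were convergent, 4 of them at Igfbp3 and 1 at Osr1, 1 was in the same direction, 0 were divergent and 10 lacked a match in at least 1 anchor. Over the whole list 15.1% of loops were convergent and 47 of 6798 were divergent. The shares of the list in the same direction or without a match in an anchor are not given here. The 4 loops of a hub share its bin, so the 16 are not independent of each other. All 4 convergent loops at Igfbp3 rest on the 1 match of its hub. A match was held by 48.4% of all anchor bins and by 21.3% of all 10 kb bins of the genome. The 2 of 4 hubs with a match thus lie near the share of anchor bins, and with 4 hubs no statement on enrichment can be made. A match is a run of letters and not a bound site, and its absence in a bin says nothing about CTCF there.

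**Figure D2:**
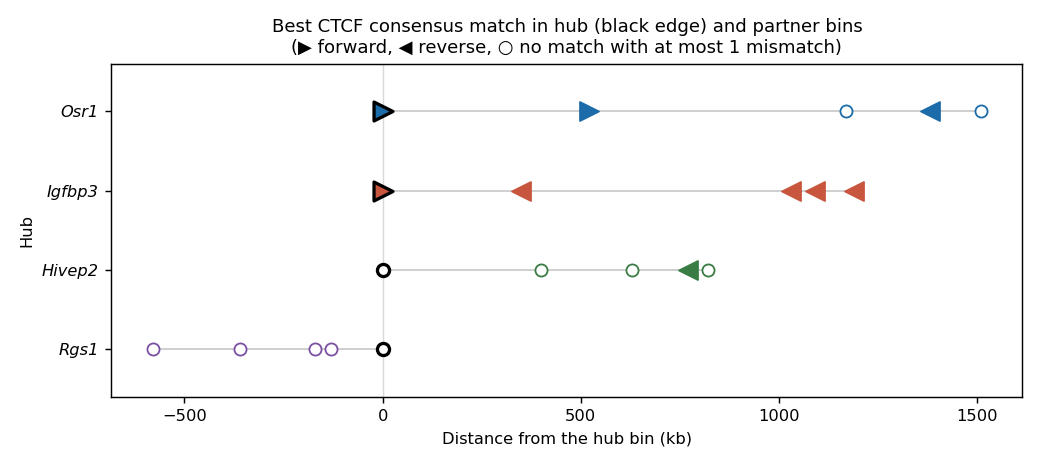
Each row is a hub, the x axis is the distance from the hub bin in kb, triangles point in the direction of the best CTCF consensus match of a bin and open circles are bins without a match at 1 mismatch or fewer; the hub has a black edge. At Igfbp3 the hub triangle points right and all 4 partner triangles point left, and the Rgs1 row has open circles only.

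The Osr1 gene (ENSMUSG00000048387.8, chr12:9570116-9581500, plus strand, 11385 bp) had its hub at chr12:9050001-9060000, 510 kb before the start site. The hub overlapped no annotated gene, and the nearest protein-coding start site, that of the tetratricopeptide repeat gene Ttc32, lay 20004 bp away on the other side of it. The 4 hub loops spanned 520 kb to the Osr1 start-site bin, 1170 kb to chr12:10220001-10230000, 1380 kb to chr12:10430001-10440000 and 1510 kb to chr12:10560001-10570000. Their FDR was 0.0981, 0.00529, 0.00187 and 0.00406 in that order. The loop to Osr1 itself therefore had the highest FDR of the 4 and lay just inside the limit of the list, and 998 of 1008 loops of like distance, meaning loops whose length differed by at most 20%, were listed with a lower value.

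The 3 longer loops passed over Osr1 to the far side. The partner at 1170 kb overlapped the lincRNA gene Gm48791 and the unclassified transcript Gm48792, and the partners at 1380 and 1510 kb overlapped no gene. Between hub and farthest partner lay 3 protein-coding start sites, those of Osr1, of Nt5c1b, which encodes a cytosolic nucleotidase, and of Rdh14, which encodes a retinol dehydrogenase. The start sites of Nt5c1b and Rdh14 lay 60028 bp and 39229 bp from the nearest partner. The hub lay in a stretch of 528 kb without a protein-coding gene between Ttc32 and Osr1, 1 partner lay in the stretch of 788 kb between Osr1 and Nt5c1b, and 2 lay in the stretch of 695 kb between Rdh14 and the potassium channel subunit gene Kcns3.

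Osr1 was also joined to 2 of these regions without the hub. Its start-site bin met the partner at 1170 kb over 650 kb with an FDR of 0.000105, the lowest of the 12 loops within 1 Mb of Osr1, and 2.33% of 860 loops of like distance were lower. The neighbouring bin, which ends 116 bp before the start site, met the bin beside the partner at 1380 kb over 860 kb with an FDR of 0.0646. Hub, start site and the region at 1170 kb thus were joined in all 3 pairs. The start-site bin had 3 loops in all, the third a loop of 410 kb with an FDR of 0.0549 from a bin 110 kb to the right of the hub.

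That bin, chr12:9160001-9170000, and its neighbour at 120 kb reached 3 of the hub's 4 partners, all but the one at 1510 kb. Beside the loop to Osr1, it met the partner at 1170 kb over 1060 kb with an FDR of 0.0189, and the neighbour met the partner at 1380 kb over 1260 kb with an FDR of 0.0756. The 110 kb bin held a plus-strand match to the CTCF consensus without a mismatch, beside 1 weaker match on the minus strand. On the other side, 50 kb to the left of the hub, the bin chr12:9000001-9010000 in Wdr35, which encodes a protein of ciliary transport, had 3 loops, all to the left. They reached 290 kb and 250 kb to bins in Pum2, which encodes an RNA-binding repressor of translation, and 120 kb to a bin in the lincRNA gene 9930038B18Rik, with FDRs of 0.0124, 0.0266 and 0.000884. No listed loop crossed the hub, whereas 6 crossed the start-site bin of Osr1. Of all anchor bins 51.6% were crossed by no loop, so that the hub was in the larger class.

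The Igfbp3 gene (ENSMUSG00000020427.11, chr11:7206086-7213923, minus strand, 7838 bp) was the only one of the 4 whose own start-site bin, chr11:7210001-7220000, was the hub. The bin holds the start of the gene, with 766 exonic bases, and the sequence upstream of it. Its loops ran 350 kb to chr11:7560001-7570000 with an FDR of 0.00975, 1030 kb to chr11:8240001-8250000 with 0.024, 1090 kb to chr11:8300001-8310000 with 0.00356 and 1190 kb to chr11:8400001-8410000 with 0.0235. The 3 far partners followed each other closely and began 680 kb beyond the near one. When calls up to 100 kb apart were merged into 1, the hub had 2 loops. Among loops of like distance, 49.6%, 60.2%, 21.3% and 59.0% had a lower FDR.

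All 4 partners lay in a stretch of 1220 kb without a protein-coding gene, which runs from the start of Igfbp3 to the end of Tns3, the gene of a focal adhesion protein on the same strand. No protein-coding start site lay between hub and farthest partner, and none of the partners overlapped an annotated gene of any class. The last partner was 254535 bp from the Tns3 start site. Between hub and farthest partner lay 6 start sites of other classes, 1 of a lincRNA and 3 of pseudogenes.

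The other 2 loops within 1 Mb of Igfbp3 lay on the opposite side. A loop of 110 kb with an FDR of 0.0025 began at the start-site bin of Ramp3, which encodes a receptor activity-modifying protein, and a loop of 490 kb with the same FDR joined the next bin of Ramp3 with a bin in Adcy1, the gene of a neuronal adenylyl cyclase, 60 kb from the hub. Igfbp1, a second IGF-binding protein gene, starts at 7197782 on the plus strand of chromosome 11, next to Igfbp3, and its start-site bin was no anchor. No loop crossed the hub. The 120 bases before the Igfbp3 start site, from RefSeq on GRCm38, are printed because they lie in the hub bin.
Igfbp3 upstream of the start site, chr11:7213924-7214043, minus strand: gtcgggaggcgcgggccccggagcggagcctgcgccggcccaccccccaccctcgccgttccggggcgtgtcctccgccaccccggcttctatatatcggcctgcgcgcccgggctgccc
The 250 bases before the start site held 32 CpG dinucleotides, more than 95.4% of 32619 RefSeq promoters, whose median was 6. Of 3 promoter motifs searched on both strands by their exact letters, none occurred there. Over this length the TATA box (letters TATAAA) is held by 12.4% of all promoters, the GC box (letters GGGCGG) by 33.0%, and the CCAAT box by 34.0%. The printed bases do hold the run tatatat, which the exact search did not count. A TATA box of looser spelling is therefore not excluded.

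The Hivep2 gene (ENSMUSG00000015501.10, chr10:13966075-14151374, plus strand) is the longest of the 4 with 185300 bp. Its hub, chr10:13560001-13570000, lay 396 kb before the start site in the body of Adat2, which encodes a subunit of a tRNA adenosine deaminase, and held 893 exonic bases of it. The start sites of Adat2 and of the divergent gene Pex3, which encodes a peroxisome biogenesis factor, lay in the neighbouring bin. The hub loops ran 400 kb to the start-site bin of Hivep2 with an FDR of 0.00272, 630 kb to chr10:14190001-14200000 with 0.000186, 770 kb to chr10:14330001-14340000 with 0.0142 and 820 kb to chr10:14380001-14390000 with 0.0177. The loop to the start site had here the second lowest FDR, with 33.1% of 1203 loops of like distance below it, and the loop of 630 kb had only 6.09% of 854 below it.

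The 3 partners beyond the start site all lay past the end of Hivep2, in a stretch of 251 kb between Hivep2 and Adgrg6, the gene of an adhesion G-protein-coupled receptor needed for myelination of peripheral nerves. Those at 630 and 770 kb overlapped the lincRNA genes Gm48843 and Gm48854. The body of Hivep2 therefore lay between the first and the second partner, as the plot of arcs shows. Between hub and farthest partner lay the start sites of Hivep2 and of Aig1, an androgen-induced gene, and 15 start sites of other classes, 9 of them lincRNAs. From the neighbouring bin with the Adat2 and Pex3 start sites another loop in the same direction ran 560 kb to a bin inside Hivep2 with an FDR of 0.0138, so that 5 loops left the 2 bins together.

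The Hivep2 hub was the only one of the 4 that other loops crossed. One of the 2 was the loop of the neighbouring bin, and the other spanned 1370 kb with an FDR of 0.00272, from a bin 540 kb to the left of the hub to one 10 kb beyond the farthest partner, so that it enclosed all 4 hub loops. Its left bin had a second loop of 400 kb with an FDR of 0.00231 that ended in Phactr2, the gene of a phosphatase and actin regulator. The right bin of the 1370 kb loop, beside the farthest partner, held a minus-strand match to the CTCF consensus without a mismatch. No partner of the Hivep2 hub was joined to another partner, neighbouring bins included.

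The Rgs1 gene (ENSMUSG00000026358.13, chr1:144242296-144249242, minus strand, 6947 bp) lay 121 kb from its hub, chr1:144370001-144380000, which overlapped no gene. Repeats filled 57.2% of this hub, against 10.0%, 17.1% and 17.2% of the hubs of Osr1, Igfbp3 and Hivep2, and its GC content was 38.8%, against 48.8%, 47.6% and 44.9%. The part of the repeats in these calls was not tested. The loops ran to the left, 130 kb to the Rgs1 bin with an FDR of 0.0787, 170 kb to chr1:144200001-144210000 with 0.0273, 360 kb to chr1:144010001-144020000 with 0.0646 and 580 kb to chr1:143790001-143800000 with 0.000184. The farthest loop had the lowest FDR, with 6.42% of 903 loops of like distance below it, while 90.1% of 1004 had a lower FDR than the loop to Rgs1.

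The hub loops at Rgs1 spanned a cluster of related genes. The 3 protein-coding start sites between hub and farthest partner were, in order from the hub, those of Rgs1 at 121 kb, Rgs13 at 193 kb and Rgs2 at 366 kb, all on the minus strand and all encoding regulators of G-protein signalling. Rgs13 is known from mast cells and B cells and Rgs2 from vascular tone. The partner at 170 kb lay between Rgs1 and Rgs13, 22629 bp from the Rgs13 start site, and the partner at 360 kb lay 5840 bp upstream of the Rgs2 start site. The farthest partner lay in Uchl5, which encodes a deubiquitinase of the proteasome, with 832 exonic bases. The start site of Rgs21, the next gene on the other side, was not reached by a hub loop.

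No listed loop joined 2 partner bins of this hub exactly, but 2 loops did so when the bins beside a partner are included. A bin beside the farthest partner, also in Uchl5, met the start-site bin of Rgs2 over 200 kb with an FDR of 2.16e-05, the lowest of all 36 loops at the 4 loci, and 5.24% of 1394 loops of like distance were lower. The farthest partner met the bin beside the partner at 170 kb over 400 kb with an FDR of 0.0411. The start-site bin of Rgs2 held a minus-strand match to the CTCF consensus and the bin beside the 170 kb partner a plus-strand match, the only ones among the anchors from Uchl5 to the hub. The remaining 2 loops, of 1700 kb with an FDR of 0.078 and of 470 kb with 0.0863, lay to the left of Uchl5 and ended in no Rgs gene, and 98.6% of the bases of 1 anchor of the latter were repeats. No listed loop crossed the hub.

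Over the 16 hub loops the FDR had a median of 0.012, next to 0.0113 over the whole list. Below an FDR of 0.05 were 13 of the 16, near the share of all loops of 78.8%, and 28 of all 36 loops at the loci. All hub loops of Igfbp3 and Hivep2 were below it, 3 of 4 at Osr1 and 2 of 4 at Rgs1. For Osr1 and Rgs1 the hub loop to the start-site bin was the one with the highest FDR of the 4, and for Hivep2 the one with the second lowest. The hub loops ran from 130 to 1510 kb with a median of 700 kb, against 280 kb over all loops. Of 1 Mb or more were 6 of the 16, 3 each at Osr1 and Igfbp3, against 6.41% of the whole list. Long loops were not particular to these hubs. At the 8 other bins of 4 loops in the list, the farthest partner had a median distance of 1240 kb, against 1005 kb at the 4 hubs. The farthest partner, from near to far, was at 580 kb for Rgs1, 820 kb for Hivep2, 1190 kb for Igfbp3 and 1510 kb for Osr1.

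**Figure D3:**
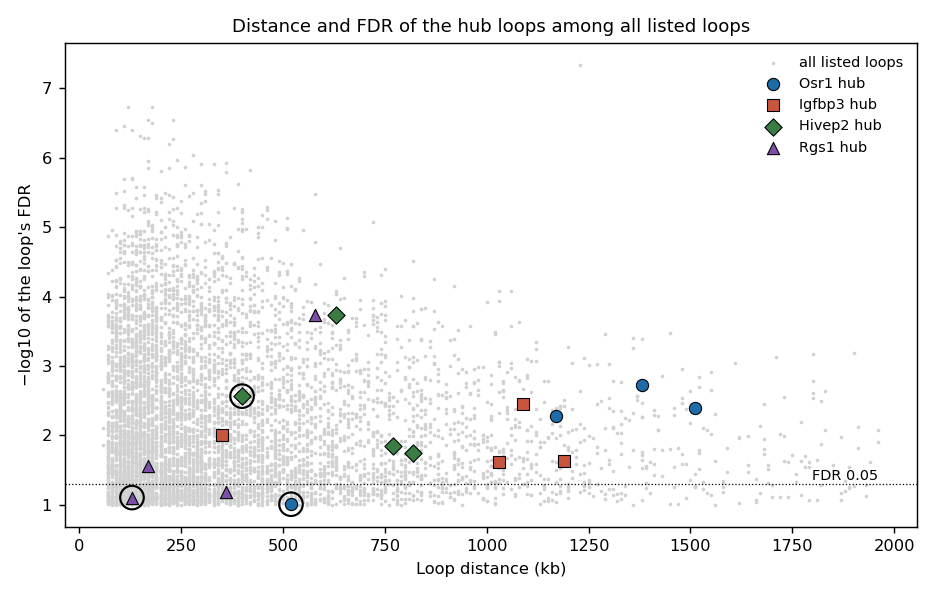
Each point is a listed loop by its distance in kb on the x axis and the negative log10 of its FDR on the y axis, grey for all 6798 loops and coloured for the 16 hub loops; rings mark the loop that ends at the start-site bin of Osr1, Hivep2 or Rgs1, and the dotted line is an FDR of 0.05. The ringed loops of Osr1 and Rgs1 lie under the line at FDRs of 0.0981 and 0.0787, and the ringed loop of Hivep2 lies above it at 0.00272.

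Counted over all loops with an anchor within 1 Mb of the start site, the 4 genes were unlike. Osr1 had 12 loops, Hivep2 10, Rgs1 8 and Igfbp3 6, where the median over all protein-coding genes was 7 and the quartiles were 4 and 10. Fewer loops than these were found at 86.7%, 73.1%, 55.6% and 38.3% of genes. Each count includes the 4 hub loops by which the gene was chosen, so these shares are descriptions and not a comparison. Loops other than those of the hub numbered 8, 6, 4 and 2 in the same order. A bin of 4 loops thus did not go with a high count around the gene at Igfbp3, where the hub held 4 of the 6 loops. Just inside the window, the nearer anchor of the farthest loop lay 560, 444, 966 and 899 kb from the start sites of Osr1, Igfbp3, Hivep2 and Rgs1, and just outside it the nearest loop left out lay at 1020, 1024, 1096 and 1959 kb.

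**Figure D4:**
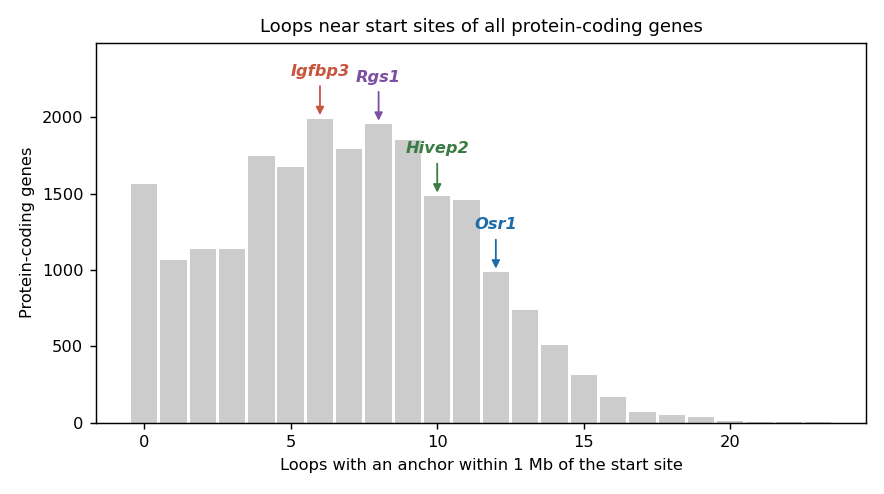
Bars give the number of protein-coding genes (y axis) for each count of loops with an anchor within 1 Mb of the start site (x axis), and arrows mark the 4 genes. Igfbp3 at 6 and Rgs1 at 8 stand beside the median of 7, and Osr1 at 12 stands to the right. The count of each marked gene includes the 4 hub loops by which it was chosen.

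The list held 12 bins of 4 loops, the 4 hubs and 8 others, and all 12 sent their loops to 1 side only. Just below this count were 162 bins of 3 loops, and no bin had more than 4. The other 8, by their nearest protein-coding start site, began at chr1:179470001 (Smyd3), chr13:116710001 (Parp8), chr2:8670001 (Celf2), chr2:107870001 (Kcna4), chr2:148120001 (Foxa2), chr5:74280001 (Rasl11b), chr7:49950001 (Nell1) and chr9:105690001 (Pik3r4). A protein-coding start site lay in the hub or a partner bin at 4 of 4 against 2 of 8, which is a property by which the 4 were chosen. The farthest partner lay at 580 to 1510 kb (median 1005 kb) against 420 to 1620 kb (median 1240 kb), so that the ranges overlapped widely. The number of protein-coding start sites between hub and farthest partner was 0 to 3 against 1 to 8. With the neighbouring bins of a partner included, partners were joined to each other in 4 of 24 possible pairs, 2 at Osr1 and 2 at Rgs1, against 4 of 48. With the partner bins alone the counts were 1 of 24, at Osr1, against 0 of 48. The CTCF consensus was matched in 2 of 4 hubs against 7 of 8 of the others, and each of these matches faced its partners. With 4 and 8 bins from 1 merged list none of these differences was tested.

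The relatives of the 4 genes mostly lacked such a bin, as did most genes, since only 0.680% of all protein-coding genes had one within 1 Mb. Osr2, the paralogue of Osr1, had 9 loops within 1 Mb, with at most 3 at a bin and none at its start-site bin. Among 11 genes of the IGF system (ligands, receptors and binding proteins), the loop count ran from 4 at Igfbp7 to 15 at Igfbp2 and Igfbp5 with a median of 8. A bin of 4 loops was near 2 of them, Igfbp1 and Igfbp3, where the share over all genes was 0.680%. Both share the hub by which Igfbp3 was chosen, so this count says nothing about the family. The start site was in an anchor bin for 6 of the 11, the chosen Igfbp3 included, against 7.10% of all genes. Igfbp3 had 4 loops there, Igf1 and Igfbp5 had 2 each, and Igf2, Igf1r and Igfbp4 had 1 each. The difference was not tested. Hivep1 and Hivep3 had 12 and 7 loops, with at most 2 at a bin, and Hivep1 had 1 loop at its start site.

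Of 21 Rgs genes, 5 had a bin of 4 loops within 1 Mb, namely Rgs1, Rgs2, Rgs13, Rgs18 and Rgs21, against 0.680% of all genes. For all 5 it was the hub by which Rgs1 was chosen, so this count says nothing about the family. Their loop counts were 8, 8, 8, 6 and 7, and over the 21 genes the count ran from 1 at Rgs20 to 13 at Rgs4 and Rgs5 with a median of 8. An anchor bin held the start site of 5 of the 21 Rgs genes, the chosen Rgs1 included, against the same 7.10%. Rgs3 had 2 loops there, and Rgs1, Rgs2, Rgs16 and Rgs22 had 1 each. Genes of a cluster share their loops, so these counts are not independent of each other.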

How the data were processed

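Micro-C reads of the 4 cochlea libraries were aligned to mm10 by the authors with BWA-MEM, filtered for chimeric pairs, freed of duplicates with pairtools, merged and searched for loops in 10 kb bins with Mustache. Each loop of the deposited list has a q-value (FDR) and the detection scale at which the authors' loop caller found it. The deposited detection scale is no score of strength and was used only to filter loops. It holds no contact counts, so the depth behind a loop is not known from it. ATAC-seq and CUT&RUN samples were not analysed here.

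Loops near the GENCODE vM21 start sites, bins of 4 loops, partners and genes between were found with Python 3.11.15, numpy 2.4.6 and pandas 2.3.3, and figures were drawn with matplotlib 3.10.9. The search was checked on simulated data. A 14-base CTCF consensus, written from general knowledge, was matched on both strands with at most 1 mismatch, and the best match gave a bin's orientation. Named genes were the 4 members, the protein-coding genes at or between hub and partner bins, 4 family lists and the other bins of 4 loops by their nearest start site. Genes at other anchors of the loci, the flanking genes Ttc32, Tns3, Kcns3 and Adgrg6, and the noncoding genes at matches or partners fall outside this rule and were named after their values were seen. Members and lists were chosen with earlier results of these data known. Alternatives varied the FDR limit, window, detection scale, merging of close calls, bin width, start-site definition and mismatches.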

Additional observations from a re-analysis of the deposited data

How the results depend on the processing

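Of 56 alternative values, 38 were within 1.5 times the reported count, in either direction, and 18 were not. For loops at the hub bin 13 held and 7 did not, and for loops within 1 Mb 16 held and 8 did not. For convergent hub loops 5 held and 3 did not, where counts of 0 at Hivep2 and Rgs1 stayed 0. The 4 values for start sites between hub and partner all held. Loops within 1 Mb fell at an FDR below 0.01 from 12 to 5 at Osr1 and from 8 to 2 at Rgs1, where an FDR below 0.05 left 4. A window of 500 kb gave 6 at Osr1, and one of 2 Mb gave 20 at Osr1 and 14 at Igfbp3. The smallest detection scale alone left 6 of 10 at Hivep2 and 4 of 8 at Rgs1. The 4 loops of the hub fell at an FDR below 0.01 to 2 at Igfbp3, 2 at Hivep2 and 1 at Rgs1, and at an FDR below 0.05 to 2 at Rgs1. The smallest scale left 2 at Osr1 and 2 at Rgs1, and counting calls within 100 kb once left 2 at Igfbp3. Convergent hub loops went from 4 to 1 at Igfbp3 and from 1 to 0 at Osr1 without mismatches, and to 2 at Osr1 with up to 2. Each of these settings removes or adds calls or matches by its construction. The protein-coding start sites between hub and farthest partner held in number with the 5′ end of any transcript. Leaving out a replicate could not be done, since the list gives no value per replicate. No paired analysis was possible because the loops were called on the merged replicates. The list gives no number of contacts behind a call, which limits all of these values. The ratios of observed to expected contacts that the paper reports for its loops were not used here.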
